A study of Mus musculus with 14 samples.

Results

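The neural cell adhesion molecules Ncam1 and Ncam2, the L1 family members L1cam, Chl1 and Nrcam, the contactins Cntn1 and Cntn2, and the neurexins Nrxn2 and Nrxn3 were followed across 5 groups of sorted mouse brain cells on 14 Affymetrix MOE430 2.0 arrays. Their probe sets were taken by gene symbol in the platform annotation, with no filter on their values. The genes themselves were chosen with earlier results of these data known. The 9 genes had 34 probe sets (short sets of oligonucleotides that read 1 transcript region), of 34945 probe sets with 1 gene symbol, which stood for 18193 genes. Each probe set is reported on its own, since those of 1 gene did not always give the same answer. Values are intensities in arbitrary units after the authors' normalisation, and differences are between means of log2 intensity.

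Ncam1 and Ncam2 encode cell surface proteins of the immunoglobulin superfamily that can each bind their own kind between neighbouring cells. Ncam1 transcripts are spliced into forms with different endings, so that the protein either spans the membrane or is held by a lipid anchor. On migrating young neurons of the subependymal zone the protein carries long chains of polysialic acid, which weaken adhesion. L1cam, Chl1 and Nrcam are transmembrane relatives that guide axons and bind ankyrins inside the cell. Contactins are lipid-anchored partners of these proteins at axons and at the junctions between axon and myelin. Neurexins are presynaptic receptors that bind neuroligins and other ligands across the synapse.

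All cells came from hGFAP eGFP mice aged 8 weeks, in which a human GFAP promoter drives GFP, and were sorted by fluorescence. SEZ_GFPprom (GFP and prominin, 4 arrays), SEZ_GFP (GFP, 2 arrays) and SEZ_Prom (prominin, 2 arrays) came from the subependymal zone, a germinal layer of the adult forebrain, and are labelled neural stem cells. SEZ_CD24 (CD24, 2 arrays) came from the same zone and is labelled ependymal, the ciliated lining of the ventricle. DIEC_GFP (GFP, 4 arrays) came from the diencephalon and is labelled astrocytes, so brain region and cell label cannot be told apart in its comparisons. The titles call the arrays biological replicates and say no more of separate animals, so the p-values measure only the spread between these samples. In a sorted population, fewer cells of a type and less RNA per cell cannot be told apart.

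The labels were set against cell type markers. The 10 ependymal markers summed to 389 to 710 units in SEZ_CD24, the lowest range of the 5 groups, against 14890 to 26135 in SEZ_GFPprom and 4696 to 8652 in DIEC_GFP. The markers therefore went against the ependymal label, and the group is called SEZ_CD24 throughout. The 10 neuroblast (young migrating neuron) markers summed to 12068 to 22158 units in SEZ_CD24 and 12206 to 12891 in SEZ_GFP. They reached 3534 to 6272 in SEZ_GFPprom, 1772 to 3986 in SEZ_Prom and 487 to 660 in DIEC_GFP. The 9 oligodendrocyte (myelin-forming cell) markers summed to 34401 to 51582 units in DIEC_GFP and 38339 to 39794 in SEZ_Prom. In SEZ_GFPprom, SEZ_CD24 and SEZ_GFP they reached 11108 to 17699, 6520 to 12440 and 4942 to 7560. Microglial markers were highest in SEZ_CD24, at 12587 to 24614 units, against 969 to 11693 elsewhere. The 10 astrocyte markers summed to 13152 to 27393 units in DIEC_GFP and 3894 to 10759 in SEZ_CD24. In SEZ_Prom, SEZ_GFPprom and SEZ_GFP they reached 15105 to 17602, 13677 to 14104 and 11389 to 14936. These ranges overlapped that of DIEC_GFP only through its replicate 4, at 13152 units. The other DIEC_GFP arrays, at 27393, 25954 and 26993 units, lay above every SEZ array. Mature neuron markers were highest in SEZ_Prom, at 9764 to 10695 units, against 417 to 5278 elsewhere. The 6 choroid plexus markers summed to 12777 to 13297 units in SEZ_Prom and 9151 to 14765 in SEZ_CD24. In SEZ_GFPprom, SEZ_GFP and DIEC_GFP they reached 395 to 7685, 485 to 9246 and 1015 to 8654. Endothelial markers stayed at 142 to 356 units, with Pecam1, Tek and Cdh5 at 10 or less in every group. The log2 ratio between 3' and 5' probe sets of control transcripts, which reflects RNA integrity and amplification, was 5.40 ± 0.29 (SD, n = 4) in DIEC_GFP and 4.63 ± 0.07 (n = 2) in SEZ_Prom.

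Of the 34 probe sets, 21 exceeded 10 units on all 14 arrays, 2 never did, and 19 reached a group mean of 100 units. No probe set was filtered out. In 10 pairwise comparisons, 23 probe sets of 8 genes passed an adjusted p of 0.05 at least once, with 82 passing results. Nrxn2 was the gene without one. The share of all probe sets that passed at least once was not computed, and shares per comparison are given below. Probe sets of 1 gene share a target, so counts of probe sets are not counts of independent genes.

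SEZ_CD24 and DIEC_GFP differed most often. In that comparison 21 of 34 probe sets passed (61.8%), against 12.6% of all probe sets, 8 higher and 13 lower in SEZ_CD24 (5.62% and 7.01% of all). Between SEZ_GFP and DIEC_GFP 16 passed (47.1%, against 9.43% of all), 6 higher and 10 lower in SEZ_GFP (4.48% and 4.94% of all). Between SEZ_GFPprom and DIEC_GFP 15 passed (44.1%, against 13.6%), 14 of them lower in SEZ_GFPprom (6.34% of all). SEZ_Prom and DIEC_GFP differed in 5 (14.7%, against 4.13%), all lower in SEZ_Prom (1.73% of all). These 4 comparisons share the DIEC_GFP arrays.

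Within the subependymal zone fewer probe sets passed. SEZ_Prom and SEZ_CD24 differed in 8 (23.5%, against 3.75% of all), SEZ_GFPprom and SEZ_CD24 in 6 (17.6%, against 10.4%), and SEZ_GFP and SEZ_Prom in 6 (17.6%, against 4.81%). SEZ_GFPprom and SEZ_Prom differed in 4 (11.8%, against 4.79%), and SEZ_GFPprom and SEZ_GFP in 1 (2.94%, against 2.02%). For SEZ_GFP against SEZ_CD24, limma passed 0 of 34 probe sets, with 5 at an unadjusted p under 0.05 and 0.446% of all probe sets passing. No other tool was run. These counts rested on single arrays in the groups of 2, as given beside the genes.

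**Figure D1:**
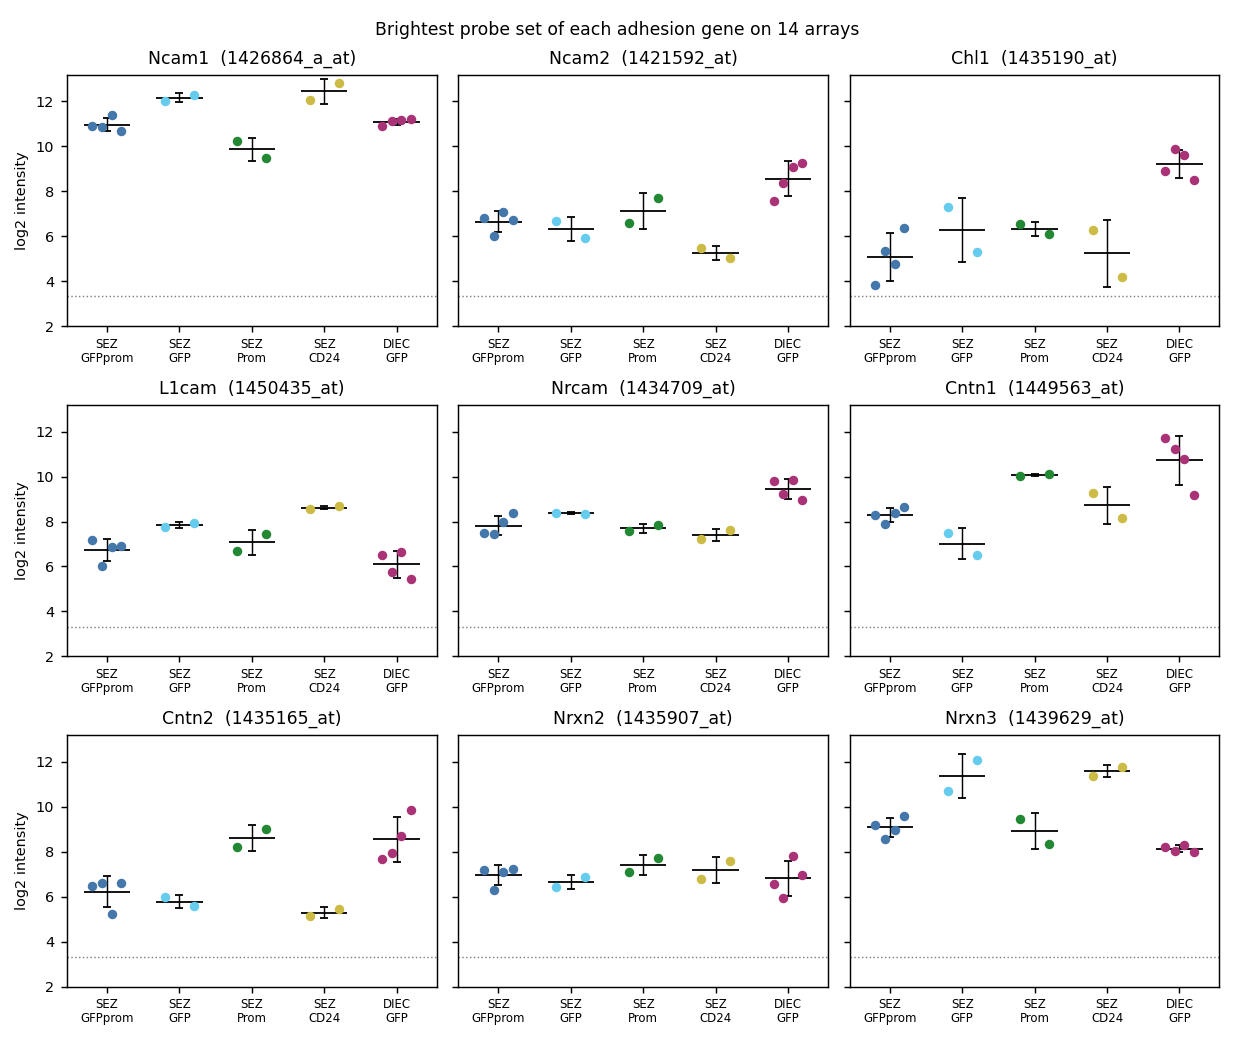
log2 intensity (vertical axis) of the probe set with the highest mean of each gene, 1 point per array, in the 5 sort groups, with the group mean (long bar) and SD (whisker). The dotted line marks 10 units. Nrxn3, L1cam and Ncam1 were highest in SEZ_CD24 and SEZ_GFP, Chl1, Nrcam, Cntn1 and Ncam2 in DIEC_GFP, and Cntn2 in SEZ_Prom and DIEC_GFP, while Nrxn2 passed in no comparison.

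Ncam1 probe sets did not share 1 pattern. The brightest, 1426864_a_at, read 4299 and 7345 units in SEZ_CD24, 4146 and 5076 in SEZ_GFP, and 1204 and 725 in SEZ_Prom. It read 1947, 1878, 2705 and 1669 units in SEZ_GFPprom and 1905, 2211, 2320 and 2373 in DIEC_GFP. All 4 arrays of SEZ_CD24 and SEZ_GFP lay above the other 10, and both SEZ_Prom arrays lay below all others. Its level was 2.56-fold higher in SEZ_CD24 than in DIEC_GFP (adjusted p = 0.00751) and 6.01-fold lower in SEZ_Prom than in SEZ_CD24 (adjusted p = 0.00363). It was 2.79-fold lower in SEZ_GFPprom than in SEZ_CD24 (adjusted p = 0.00701) and 4.91-fold higher in SEZ_GFP than in SEZ_Prom (adjusted p = 0.00538). Between SEZ_GFPprom and DIEC_GFP the difference was -0.12 log2 units, with a 95% confidence interval of -0.62 to 0.37. Leaving out SEZ_CD24 replicate 2 took the adjusted p against DIEC_GFP to 0.11 and against SEZ_GFPprom to 0.0948. Leaving out SEZ_GFP replicate 2 took that against SEZ_Prom to 0.0627.

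A second Ncam1 probe set, 1450437_a_at, was highest in DIEC_GFP and lowest on average in SEZ_CD24. It read 812, 881, 953 and 653 units in DIEC_GFP, 254 and 499 in SEZ_Prom, and 126 and 53 in SEZ_GFP. In SEZ_GFPprom it read 49, 71, 65 and 66 units, and in SEZ_CD24 65 and 22. Every DIEC_GFP array lay above every array of the other groups, and both SEZ_Prom arrays came next. The level was 21.6-fold lower in SEZ_CD24 than in DIEC_GFP (log2 difference -4.43 ± 0.45, SE, adjusted p = 0.000144). It was 13.1-fold lower in SEZ_GFPprom (adjusted p = 0.00015) than in DIEC_GFP. For SEZ_GFP the log2 difference was -3.32 (adjusted p = 0.00101), and none of these 3 calls was lost under any alternative tried. Within the subependymal zone it was 9.41-fold higher in SEZ_Prom than in SEZ_CD24 (adjusted p = 0.0105) and 5.73-fold lower in SEZ_GFPprom than in SEZ_Prom (adjusted p = 0.00905). Without SEZ_Prom replicate 2 these became adjusted p = 0.0812 and 0.116, and without SEZ_CD24 replicate 2 the first became 0.058.

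The remaining Ncam1 probe sets fell with 1 pattern or the other, or with neither. The platform annotation lists the same source sequence for 1426864_a_at and 1426865_a_at, and another for 1450437_a_at, 1450438_at and 1421966_at. Over the 14 arrays r was 0.86 for the first pair, 0.9 between 1450437_a_at and 1450438_at, and -0.53 between 1426864_a_at and 1450437_a_at. Probe set 1426865_a_at was 3.46-fold higher in SEZ_CD24 than in DIEC_GFP (adjusted p = 0.00523), a call lost without SEZ_CD24 replicate 2 (adjusted p = 0.0782). Its SEZ_CD24 arrays read 360 and 835 units and its DIEC_GFP arrays 124 to 193. Probe set 1450438_at stayed at 11 to 37 units on all arrays and was 2.47-fold lower in SEZ_CD24 than in DIEC_GFP (adjusted p = 0.00337). In 5 of the 8 comparisons where Ncam1 passed, some of its probe sets were higher and others lower in the same group. Which transcript forms each probe set detects is not given in the sources used here. Probe set 1439556_at was low in SEZ_GFPprom (75, 8, 60 and 131 units) and read 214, 268, 513 and 455 in DIEC_GFP, a 7.3-fold difference (adjusted p = 0.0283). That call was lost without DIEC_GFP replicate 2, 3 or 4 (adjusted p = 0.0558, 0.0644 and 0.0569). The other probe sets, 1421966_at and 1425126_at, passed in no comparison and ranged over 6 to 12 and 14 to 100 units.

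**Figure D2:**
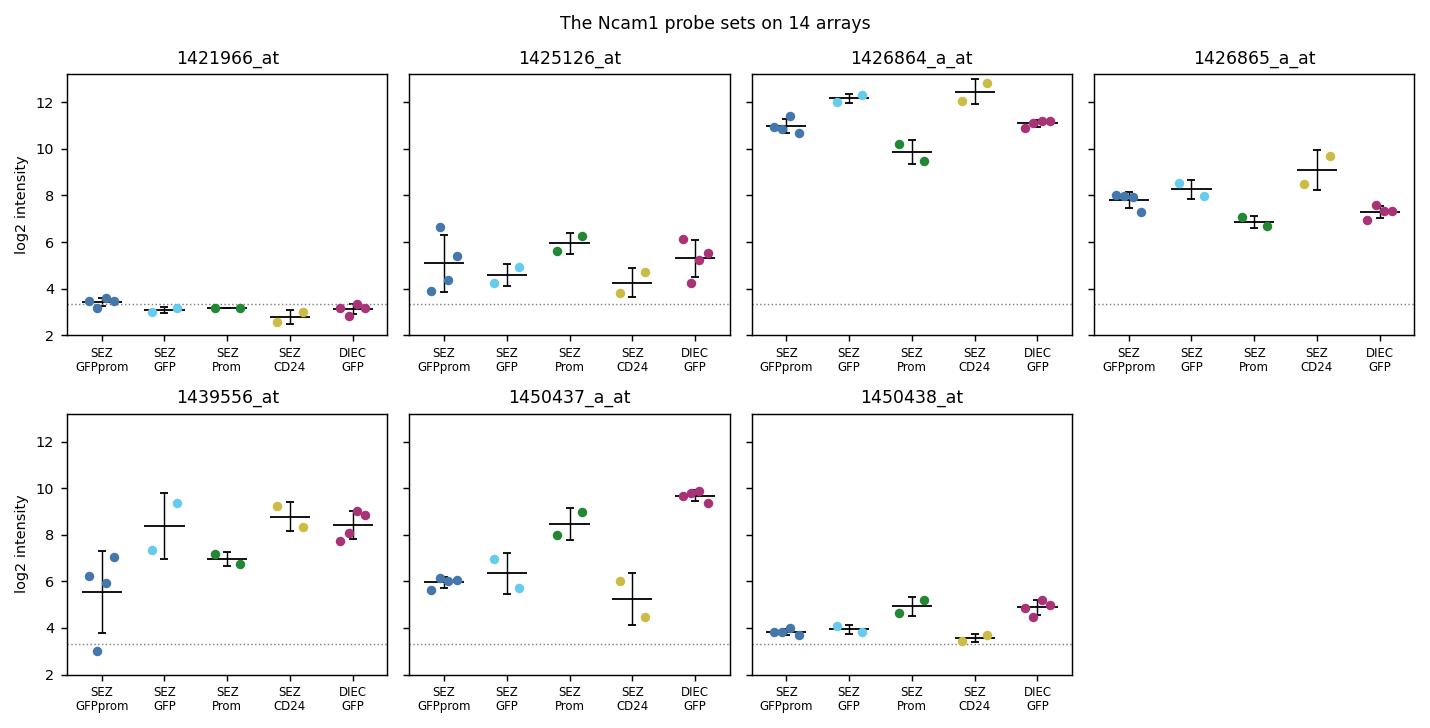
log2 intensity (vertical axis) of the 7 Ncam1 probe sets in the 5 sort groups, 1 point per array, with the group mean (long bar) and SD (whisker). The dotted line marks 10 units. 1426864_a_at and 1426865_a_at were highest in SEZ_CD24, whereas 1450437_a_at ran from 22 units in SEZ_CD24 to 953 in DIEC_GFP.

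Ncam2, an NCAM relative best known from olfactory axons, was highest in DIEC_GFP. Its probe set 1421592_at read 188, 327, 537 and 611 units there and 45 and 33 in SEZ_CD24. It read 114, 64, 135 and 105 units in SEZ_GFPprom, 103 and 61 in SEZ_GFP, and 96 and 210 in SEZ_Prom. The SEZ_Prom range overlapped that of DIEC_GFP, and those of the other 3 groups did not. The level was 9.78-fold lower in SEZ_CD24 (adjusted p = 0.0013), 3.74-fold lower in SEZ_GFPprom (adjusted p = 0.00994) and 4.75-fold lower in SEZ_GFP (adjusted p = 0.014) than in DIEC_GFP. The last of these was lost without SEZ_GFP replicate 2 (adjusted p = 0.18). The SEZ_Prom difference of -1.41 (log2) missed the threshold (adjusted p = 0.157, 95% confidence interval -2.48 to -0.33). Of its other probe sets, 1421593_at read 6 to 13 units and 1425301_at 8 to 56, and neither passed.

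Enzymes and partners of NCAM were read from a list of 9 genes, all measured. St8sia2 and St8sia4, the polysialyltransferases that build polysialic acid on NCAM, were both lowest on average in DIEC_GFP. St8sia2 read 118 to 148 units in DIEC_GFP, 175 and 208 in SEZ_Prom, 278 to 552 in SEZ_GFPprom, 546 and 551 in SEZ_GFP, and 425 and 786 in SEZ_CD24. No SEZ array overlapped DIEC_GFP, and the differences from it were 4.39-fold for SEZ_CD24 (adjusted p = 0.000813), 4.16-fold for SEZ_GFP (adjusted p = 0.00138) and 3.28-fold for SEZ_GFPprom (adjusted p = 0.00115). St8sia4 read 107, 32, 14 and 104 units in DIEC_GFP, 97 and 157 in SEZ_Prom, and 190 to 413 in SEZ_GFPprom. In SEZ_GFP it read 731 and 841 units and in SEZ_CD24 875 and 1209. Its level was 21.8-fold higher in SEZ_CD24 (adjusted p = 0.0018), 16.6-fold in SEZ_GFP (adjusted p = 0.00415) and 5.44-fold in SEZ_GFPprom (adjusted p = 0.0168) than in DIEC_GFP. The SEZ_GFP call was lost without SEZ_GFP replicate 2 (adjusted p = 0.0585). Prnp, the prion protein, a binding partner of NCAM, was 2.98-fold lower in SEZ_CD24 than in DIEC_GFP (adjusted p = 0.0011). In that comparison 2 of the 9 genes were higher and 3 lower in SEZ_CD24, with a median difference of 0.29 against -0.01 over all genes. Among all genes, 6.31% were higher and 9.13% lower.

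**Figure D3:**
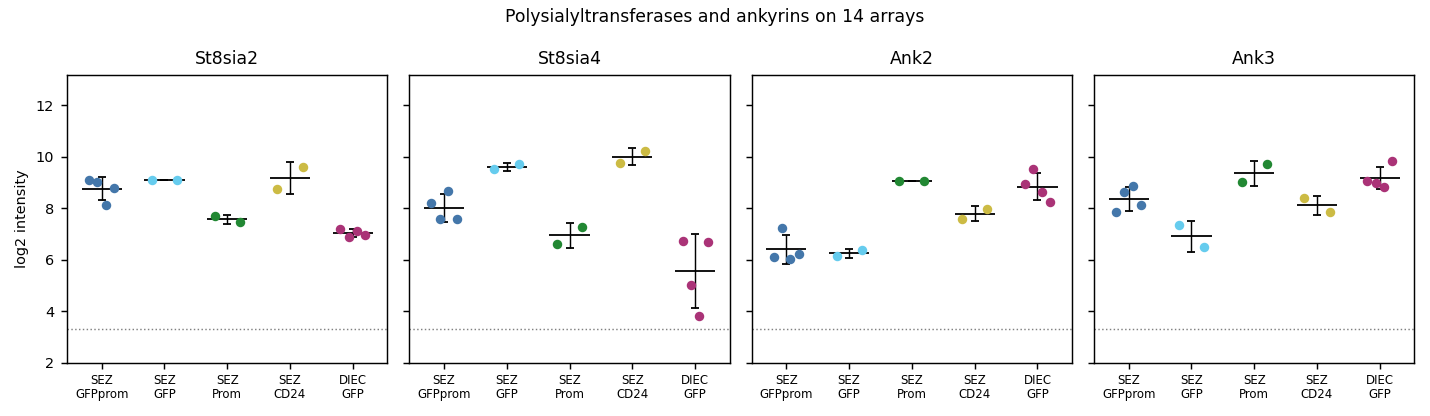
log2 intensity (vertical axis) of the polysialyltransferases St8sia2 and St8sia4 and the ankyrins Ank2 and Ank3 in the 5 sort groups, 1 point per array, with the group mean (long bar) and SD (whisker). The dotted line marks 10 units. St8sia4 ran from 14 to 107 units in DIEC_GFP and reached 875 and 1209 in SEZ_CD24, while Ank2 was 65 to 152 in SEZ_GFPprom and 305 to 735 in DIEC_GFP.

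Within the L1 family, L1cam and its relatives Chl1 and Nrcam went opposite ways between SEZ_CD24 and DIEC_GFP. The promoter windows of these 3 genes are shown because the genes are paralogs that moved in different directions. Each spans 300 bases around a RefSeq transcription start (GRCm38.p6), most of them upstream, and is written 5' to 3' on the gene's strand, with matches to GGGCGG on either strand in capitals. L1cam is at chrX:73880785-73881084 (minus strand), the more upstream of its 2 listed starts, Nrcam at chr12:44328635-44328934 (plus strand) and Chl1 at chr6:103510626-103510925 (plus strand).
L1cam: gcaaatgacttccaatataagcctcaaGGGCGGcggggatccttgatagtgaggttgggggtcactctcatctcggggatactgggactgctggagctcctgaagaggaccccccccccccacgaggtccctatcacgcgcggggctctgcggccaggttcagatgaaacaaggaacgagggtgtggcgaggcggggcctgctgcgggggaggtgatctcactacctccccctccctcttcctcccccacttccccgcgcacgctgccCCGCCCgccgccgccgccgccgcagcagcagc
Nrcam: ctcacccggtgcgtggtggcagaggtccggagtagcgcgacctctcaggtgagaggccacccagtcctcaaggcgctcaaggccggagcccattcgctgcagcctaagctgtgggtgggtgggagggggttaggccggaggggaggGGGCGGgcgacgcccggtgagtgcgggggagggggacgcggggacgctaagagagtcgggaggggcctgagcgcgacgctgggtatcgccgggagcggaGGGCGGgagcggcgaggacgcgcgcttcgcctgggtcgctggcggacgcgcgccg
Chl1: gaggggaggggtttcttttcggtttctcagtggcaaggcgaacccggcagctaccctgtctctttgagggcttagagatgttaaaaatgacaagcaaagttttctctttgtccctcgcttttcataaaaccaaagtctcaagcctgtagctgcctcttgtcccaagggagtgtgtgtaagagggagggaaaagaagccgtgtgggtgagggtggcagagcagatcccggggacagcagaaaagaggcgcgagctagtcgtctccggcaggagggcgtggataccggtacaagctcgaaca
The L1cam and Nrcam windows each held 2 matches to GGGCGG and the Chl1 window 0, and 35.7% of 32851 RefSeq windows of this length held at least 1. GC content was 67.0% in L1cam, 74.0% in Nrcam and 53.7% in Chl1, against a median of 52.7% over all windows. L1cam and Nrcam, which were highest in different groups, held the same number of matches.

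L1cam, an axonal receptor of growing and migrating neurons, was highest in SEZ_CD24. Probe set 1450435_at read 379 and 408 units in SEZ_CD24, 217 and 245 in SEZ_GFP, and 103 and 175 in SEZ_Prom. It read 146, 66, 115 and 121 units in SEZ_GFPprom and 92, 54, 101 and 43 in DIEC_GFP. SEZ_CD24 overlapped no other group, and SEZ_GFP came second with no overlap either. The level was 5.77-fold higher in SEZ_CD24 than in DIEC_GFP (log2 difference 2.53 ± 0.39, SE, adjusted p = 0.00157), a call kept under every alternative tried. It was 3.65-fold lower in SEZ_GFPprom than in SEZ_CD24 (adjusted p = 0.0124) and 3.38-fold higher in SEZ_GFP than in DIEC_GFP (adjusted p = 0.0154). Without SEZ_CD24 replicate 1 or 2 the first of these gave adjusted p = 0.056 and 0.093, and without SEZ_GFP replicate 1 or 2 the second gave 0.0884 and 0.143. The other L1cam probe set, 1421958_at, read 5 to 8 units on all arrays and showed no level above that of dim probe sets.

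Chl1, the close homolog of L1, was highest in DIEC_GFP. Probe set 1435190_at read 480, 934, 789 and 360 units there. It read 14, 41, 27 and 83 units in SEZ_GFPprom, 158 and 39 in SEZ_GFP, 93 and 69 in SEZ_Prom, and 79 and 18 in SEZ_CD24. Every DIEC_GFP array lay above every SEZ array. The level was 17.7-fold lower in SEZ_GFPprom than in DIEC_GFP (log2 difference -4.15 ± 0.64, SE, adjusted p = 0.00197), 15.8-fold lower in SEZ_CD24 (adjusted p = 0.00608) and 7.61-fold lower in SEZ_GFP (adjusted p = 0.0372). The SEZ_CD24 call was lost without SEZ_CD24 replicate 2 (adjusted p = 0.0957) and the SEZ_GFP call without SEZ_GFP replicate 2 (adjusted p = 0.393), among 7 such arrays whose loss ended the latter. SEZ_Prom missed the threshold at 7.46-fold lower (adjusted p = 0.0658). The dimmer probe set 1417795_at read 75, 106, 118 and 75 units in DIEC_GFP and 9 to 16 on the 10 SEZ arrays. It was lower than in DIEC_GFP in all 4 SEZ groups, by 6.54-fold to 9.65-fold (adjusted p from 1.37e-05 to 0.000117), and none of these calls was lost under any alternative tried. The SEZ_CD24 arrays read 9 and 10 units, and with values under 10 set to 10 that fold was 9.16. Over the 14 arrays r between these probe sets was 0.86, and 1443713_at (4 to 6 units) and 1447036_at (10 to 14) passed in no comparison.

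Nrcam, an L1 relative found at nodes of Ranvier and on glia, was also highest in DIEC_GFP. Probe set 1434709_at read 901, 599, 909 and 490 units in DIEC_GFP and 150 and 195 in SEZ_CD24. It read 180, 175, 249 and 331 units in SEZ_GFPprom, 337 and 323 in SEZ_GFP, and 189 and 228 in SEZ_Prom. Every DIEC_GFP array was above every SEZ array. The level was 4.09-fold lower in SEZ_CD24 (adjusted p = 0.00153), 3.1-fold lower in SEZ_GFPprom (adjusted p = 0.00218) and 3.37-fold lower in SEZ_Prom (adjusted p = 0.00996) than in DIEC_GFP. The SEZ_GFP difference, -1.09 (log2), missed the threshold at adjusted p = 0.0514, with a 95% confidence interval of -1.77 to -0.40. The 4 Nrcam probe sets had r of 0.66 to 0.92 with each other, and all were lower in SEZ_GFPprom than in DIEC_GFP by 2.15-fold to 4.11-fold (adjusted p from 0.0018 to 0.0129). Of those calls, that of 1443281_at alone was lost, with the 3' to 5' ratio as a covariate (adjusted p = 0.0802). The SEZ_Prom call of 1434709_at was lost without SEZ_Prom replicate 1 or 2 (adjusted p = 0.112 and 0.0606).

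Chl1, Nrcam and Ncam2 were thus each highest in DIEC_GFP, the group in which the 8 oligodendrocyte progenitor markers summed to 10685 to 14077 units, against 551 to 7409 in the SEZ groups. Of those 8 markers, 7 were lower in SEZ_CD24 than in DIEC_GFP and 6 lower in SEZ_GFPprom. Of the 10 astrocyte markers, 9 and 5 were lower in the same comparisons, in which 9.13% and 7.02% of all genes were lower. The part of either in these results was not tested.

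Contactin 1, a ligand of neurons and oligodendrocyte lineage cells, was highest in DIEC_GFP by all 3 probe sets. Its brightest, 1449563_at, read 3380, 2439, 1742 and 587 units in DIEC_GFP, with replicate 4 far below the others, and 1048 and 1098 in SEZ_Prom. It read 314, 240, 330 and 396 units in SEZ_GFPprom, 626 and 282 in SEZ_CD24, and 181 and 92 in SEZ_GFP. The replicate 4 array of DIEC_GFP lay inside the SEZ_CD24 range and below both SEZ_Prom arrays, and both SEZ_GFP arrays lay below all others. The log2 difference of SEZ_GFP from DIEC_GFP was -3.72 (adjusted p = 0.00244). The level was 5.41-fold lower in SEZ_GFPprom (adjusted p = 0.00694) and 4.06-fold lower in SEZ_CD24 (adjusted p = 0.0434) than in DIEC_GFP. Without SEZ_GFP replicate 2 the SEZ_GFP difference gave adjusted p = 0.0527. With the 3' to 5' ratio as a covariate the SEZ_GFPprom and SEZ_GFP calls were lost (adjusted p = 0.127 and 0.095). The SEZ_CD24 call was lost without any 1 of 13 arrays, with adjusted p from 0.0515 to 0.323. Against SEZ_Prom the DIEC_GFP difference had a 95% confidence interval of -1.95 to 0.62 (log2, SEZ_Prom minus DIEC_GFP, adjusted p = 0.652). SEZ_GFP was 8.31-fold below SEZ_Prom (adjusted p = 0.0275), a call lost without either array of either group (adjusted p from 0.0712 to 0.216).

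The other Cntn1 probe sets, 1452981_at and 1459197_at, followed the same order of DIEC_GFP first, with r of 0.77 to 0.89 among the 3. For 1452981_at the DIEC_GFP arrays read 1271, 2346, 1011 and 440 units and the SEZ_CD24 arrays 116 and 90, a log2 difference of -3.39 (adjusted p = 0.0022) kept under every alternative tried. For 1459197_at they read 988, 742, 775 and 531 units against 17 to 162 on all 10 SEZ arrays. That probe set was 13.4-fold lower in SEZ_GFPprom (adjusted p = 0.00499), 18.2-fold lower in SEZ_GFP (adjusted p = 0.00935) and 13.5-fold lower in SEZ_CD24 (adjusted p = 0.0132) than in DIEC_GFP. Without SEZ_CD24 replicate 2 the last gave adjusted p = 0.164. Without SEZ_GFP replicate 1 or 2 the SEZ_GFP difference gave 0.0588 and 0.109.

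Contactin 2, which organises the axon next to the myelin junction and is made by neurons and oligodendrocytes, was high in both SEZ_Prom and DIEC_GFP. Probe set 1435165_at read 294 and 515 units in SEZ_Prom and 203, 246, 418 and 944 in DIEC_GFP. It read 89, 98, 37 and 97 units in SEZ_GFPprom, 63 and 48 in SEZ_GFP, and 35 and 44 in SEZ_CD24. The first 2 groups overlapped each other and no array of the other 3. SEZ_Prom was 9.92-fold above SEZ_CD24 (adjusted p = 0.0239), 7.08-fold above SEZ_GFP (adjusted p = 0.0343) and 5.2-fold above SEZ_GFPprom (adjusted p = 0.0376). Each of these 3 calls was lost on leaving out either SEZ_Prom array, with adjusted p of 0.073 to 0.27, or either array of SEZ_CD24 or SEZ_GFP where these were compared (0.0747 to 0.213). The difference from SEZ_GFPprom was also lost without any 1 array of SEZ_GFPprom, SEZ_GFP or SEZ_CD24 (0.0508 to 0.0664). Compared with DIEC_GFP, SEZ_CD24 was 9.55-fold lower (adjusted p = 0.00336), SEZ_GFPprom 5.01-fold lower (adjusted p = 0.00789) and SEZ_GFP 6.81-fold lower (adjusted p = 0.0107). The first 2 of those were kept under every alternative tried, and the last was lost without SEZ_GFP replicate 1 or 2 (adjusted p = 0.0628 and 0.121). SEZ_Prom minus DIEC_GFP was 0.05 (log2), with a 95% confidence interval of -1.20 to 1.31. Probe set 1435166_at had r of 0.9 with it and passed in 4 of the same 6 comparisons, in the same direction. Each of those 4 calls was lost on leaving out either array of any group of 2 in it (adjusted p from 0.0653 to 0.206). The remaining probe sets, 1450523_at (15 to 33 units) and 1456962_at (10 to 96 units), passed in none.

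The summed oligodendrocyte markers were highest in DIEC_GFP and SEZ_Prom, as were Cntn2, Cntn1 and the Ncam1 probe set 1450437_a_at. Among the other groups and within DIEC_GFP the orders differed. DIEC_GFP replicate 4 had the highest sum, 51582 units, and the lowest Cntn1 1449563_at of its group, 587 units. SEZ_GFPprom had higher sums than SEZ_GFP, but a lower mean of 1450437_a_at (5.96 against 6.35, log2). Compared with SEZ_CD24, its sums were 11108 to 17699 units, against 6520 to 12440, and its mean of Cntn1 1449563_at was lower (8.30 against 8.71). In SEZ_Prom against DIEC_GFP, limma passed 0 of the 9 oligodendrocyte markers, with 0 at an unadjusted p under 0.05. In SEZ_CD24 against DIEC_GFP 8 of the 9 were lower, and in SEZ_Prom against SEZ_CD24 8 were higher (2.77% of all genes). The part of myelin-forming cells in these results was not tested. No oligodendrocyte marker was at 10 units or less in any group.

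Nrxn3, a presynaptic neurexin, was highest in SEZ_CD24 and SEZ_GFP by all 5 probe sets. Its promoter window is shown because it moved with L1cam over the arrays (r of 0.86 between their brightest probe sets, n = 14, as a description). It is the most upstream of 3 RefSeq starts, at chr12:88794254-88794553 (GRCm38.p6, plus strand).
Nrxn3: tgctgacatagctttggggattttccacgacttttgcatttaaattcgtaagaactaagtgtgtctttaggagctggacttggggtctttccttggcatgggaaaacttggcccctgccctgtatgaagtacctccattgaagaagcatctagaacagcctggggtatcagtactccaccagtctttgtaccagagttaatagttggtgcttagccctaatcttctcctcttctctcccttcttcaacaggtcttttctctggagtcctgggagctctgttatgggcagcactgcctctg
The window held 0 matches to GGGCGG on either strand, and its GC content was 47.3%.

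Probe set 1439629_at of Nrxn3 read 2682 and 3516 units in SEZ_CD24 and 1653 and 4299 in SEZ_GFP. It read 594, 381, 494 and 772 units in SEZ_GFPprom, 709 and 325 in SEZ_Prom, and 294, 261, 320 and 254 in DIEC_GFP. SEZ_CD24 and SEZ_GFP overlapped each other and no other group, and all DIEC_GFP arrays lay below all SEZ arrays. The level was 10.9-fold higher in SEZ_CD24 (log2 difference 3.45 ± 0.41, SE, adjusted p = 0.000338) and 9.49-fold higher in SEZ_GFP (adjusted p = 0.000666) than in DIEC_GFP. Both calls, and the 5.67-fold lower level in SEZ_GFPprom than in SEZ_CD24 (adjusted p = 0.00323), were kept under every alternative tried. The level was also 6.4-fold lower in SEZ_Prom than in SEZ_CD24 (adjusted p = 0.0148) and 5.55-fold higher in SEZ_GFP than in SEZ_Prom (adjusted p = 0.0152). Without SEZ_Prom replicate 2 these gave adjusted p = 0.106 and 0.11, without SEZ_CD24 replicate 2 the first gave 0.0894, and without SEZ_GFP replicate 2 the second gave 0.14. SEZ_GFPprom was 4.92-fold lower than SEZ_GFP (adjusted p = 0.0123), the single probe set of the 9 genes to pass between them. By limma 10 of the 34 member probe sets had an unadjusted p under 0.05 there. The call of 1439629_at was lost without SEZ_GFP replicate 2, which left 1 array in that group. Between SEZ_GFP and SEZ_CD24 the difference was -0.20 (log2), with a 95% confidence interval of -1.23 to 0.82.

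All 5 Nrxn3 probe sets were higher in SEZ_CD24 than in DIEC_GFP, by 4.48-fold to 10.9-fold, and r among them was 0.61 to 0.92. Without SEZ_CD24 replicate 1 or 2 the call was lost for 1433788_at (adjusted p = 0.0691 and 0.106) and 1438193_at (0.0882 and 0.13), and without replicate 2 for 1456137_at (0.075). Probe set 1433788_at read 677 and 793 units in SEZ_CD24, 610 and 685 in SEZ_GFP, and 116, 123, 287 and 41 in DIEC_GFP. In SEZ_GFPprom it read 175, 204, 418 and 229 units and in SEZ_Prom 416 and 180. The ranges of SEZ_CD24 and SEZ_GFP met no other group. Probe set 1456137_at read 74, 68, 81 and 97 units in SEZ_GFPprom and 32, 26, 57 and 10 in DIEC_GFP, a 3.02-fold difference (adjusted p = 0.031). All 5 probe sets had the higher mean in SEZ_GFPprom, and this was the single one to pass. The call was lost without DIEC_GFP replicate 2 (adjusted p = 0.0711) or without any 1 SEZ_GFPprom array (adjusted p from 0.0571 to 0.073). For 1438193_at the SEZ_GFP call of 5.37-fold over DIEC_GFP (adjusted p = 0.0486) was lost without any 1 of 12 arrays (adjusted p from 0.0629 to 0.286). Probe set 1432931_at read 30 and 40 units in SEZ_CD24 and 7 to 21 on the other arrays, so its 4.48-fold difference from DIEC_GFP (adjusted p = 0.00152) was 3.46-fold with values under 10 set to 10.

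Nrxn2 showed no difference past the threshold in any of 20 tests by limma, with 0 at an unadjusted p under 0.05. Probe set 1435907_at read 145, 78, 136 and 151 units in SEZ_GFPprom, 86 and 116 in SEZ_GFP, 137 and 213 in SEZ_Prom, 111 and 195 in SEZ_CD24, and 96, 62, 224 and 125 in DIEC_GFP. The SEZ_GFP range lay below that of SEZ_Prom, and the other pairs of groups overlapped. For SEZ_CD24 minus DIEC_GFP the 95% confidence interval ran from -0.64 to 1.38 (log2), so that a difference as large as that of Nrxn3 lay outside it. The other probe set, 1455499_at, read 8 to 12 units.

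The summed neuroblast markers were highest in SEZ_CD24 and SEZ_GFP, as were Nrxn3, L1cam and the Ncam1 probe set 1426864_a_at. All 10 neuroblast markers were higher in SEZ_CD24 and in SEZ_GFP than in DIEC_GFP, and 7 of 10 were lower in SEZ_GFPprom than in SEZ_CD24. Over all genes 6.31%, 5.13% and 4.19% passed in those directions. Between SEZ_GFP and SEZ_CD24 limma passed 0 of the 10, with 0 at an unadjusted p under 0.05. No neuroblast marker had a group mean of 10 units or less, but Sp8 came near it in DIEC_GFP (mean 3.45, log2). Whether low levels mark presence or absence was not tested. The part of young neurons in these results was not tested. Among the other groups the orders differed in part. For Ncam1, DIEC_GFP read 1905 to 2373 units beside the lowest neuroblast sums. L1cam 1450435_at had a higher mean in SEZ_Prom than in SEZ_GFPprom (7.07 against 6.75, log2), as had Nrxn3 1433788_at (8.10 against 7.92). The neuroblast sums of these groups were 1772 to 3986 and 3534 to 6272 units.

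**Figure D4:**
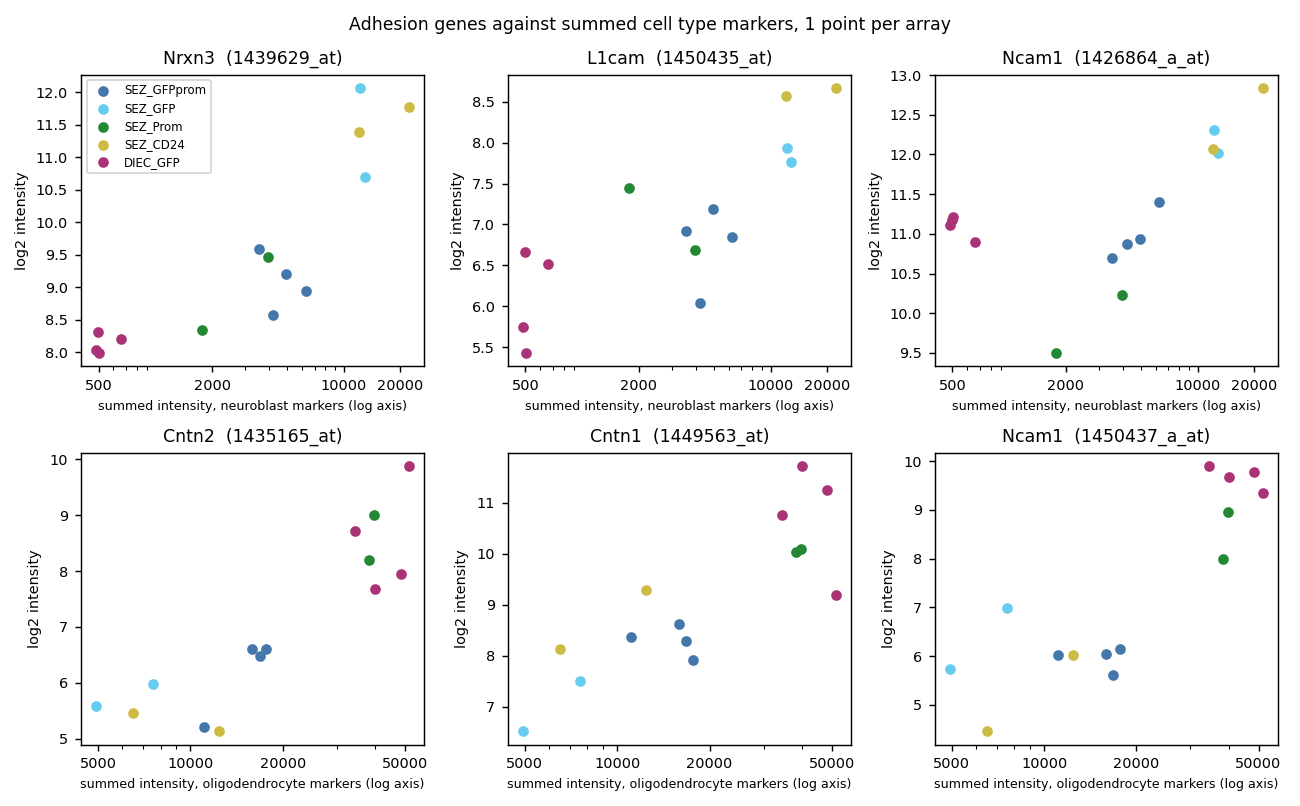
log2 intensity of Nrxn3, L1cam, Cntn2, Cntn1 and 2 Ncam1 probe sets (vertical axes) against the summed intensity of 10 neuroblast or 9 oligodendrocyte markers (horizontal log axes), 1 point per array, coloured by group. In the upper row DIEC_GFP lies at 487 to 660 units of neuroblast markers and SEZ_CD24 and SEZ_GFP at 12068 to 22158; in the lower row DIEC_GFP and SEZ_Prom lie together at 34401 to 51582 units of oligodendrocyte markers.

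**Figure D5:**
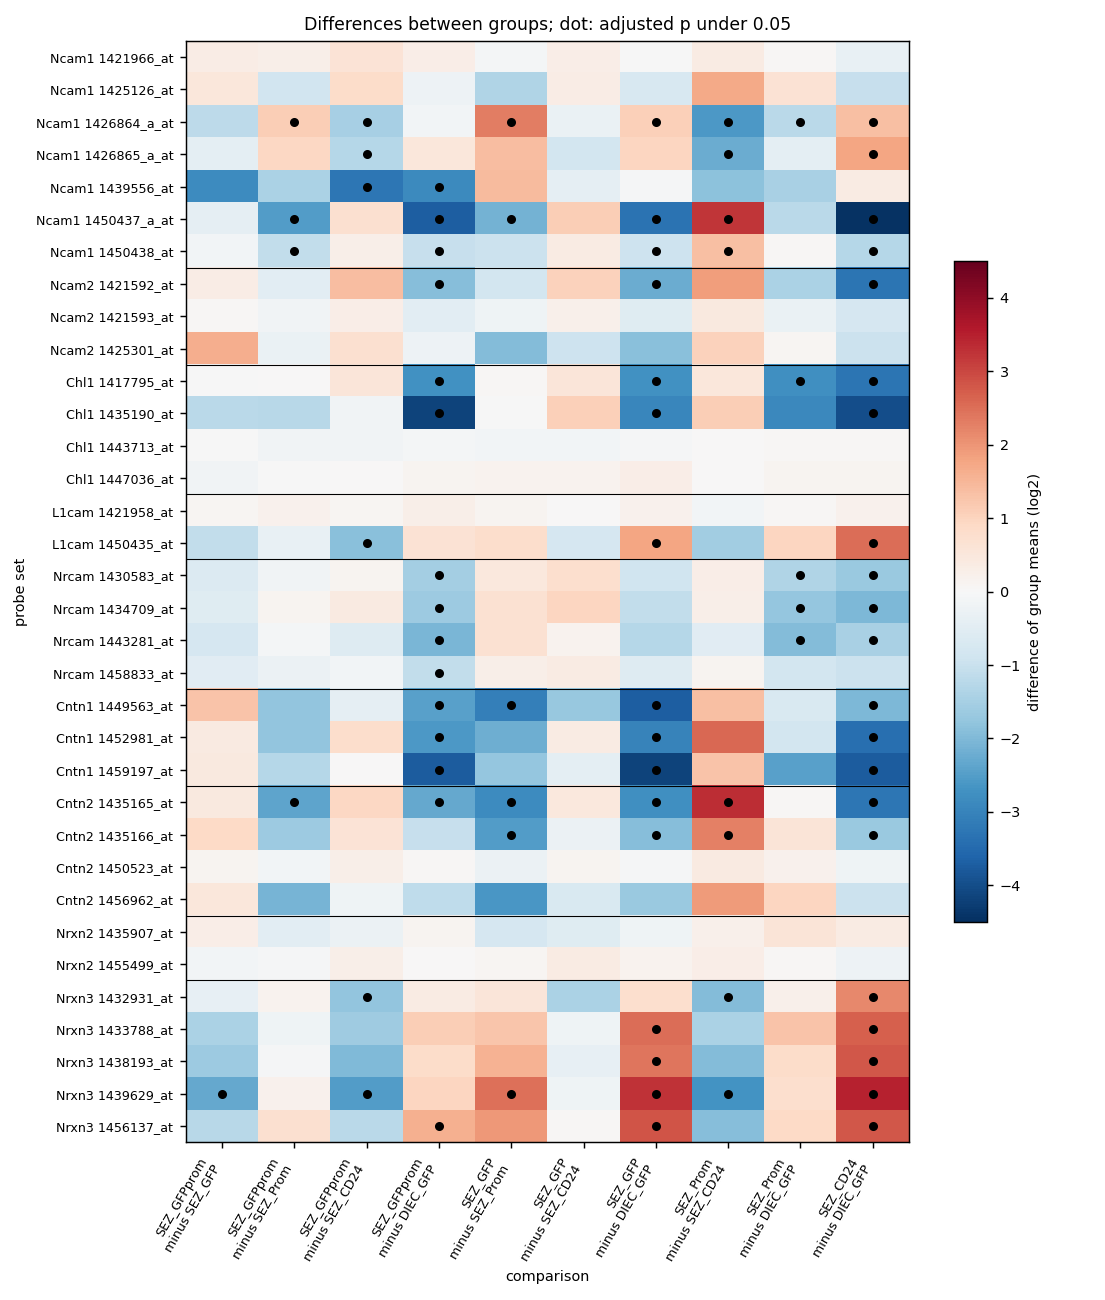
Difference of group means (log2, first group minus second, colour scale) for the 34 probe sets (rows, grouped by gene) in the 10 comparisons (columns), with a dot where the adjusted p is under 0.05. The dots of the Ncam1 rows go both ways in 5 columns and those of the Nrxn3 rows in 0, and the SEZ_GFP minus SEZ_CD24 column holds 0 dots.

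Agreement between probe sets thus ranged widely by gene. Probe sets of Nrxn3, Cntn1 and Nrcam ran together (lowest r 0.61, 0.77 and 0.66), with all of them passing in 1 direction in 1, 3 and 1 comparisons. In Chl1 and Cntn2 the brighter pair had r of 0.86 and 0.9 and the dimmer probe sets passed in none. Ncam1 was the gene with calls in both directions. Since r was taken over arrays that include group differences, it carries them too.

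Other genes of the same adhesion systems were read from 4 lists of 65 genes, 62 of them measured. Of the 62, 20 passed between SEZ_CD24 and DIEC_GFP, 6 higher and 14 lower in SEZ_CD24, with a median difference of -0.11 against -0.01 over all genes. Over all genes 6.31% were higher and 9.13% lower. Between SEZ_GFPprom and DIEC_GFP 18 passed, 6 higher and 12 lower, with a median of -0.25 against 0.08. The background over all genes was 9.03% higher and 7.02% lower in that comparison.

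Among 17 partners and relatives of L1 and the contactins, 4 were lower and 1 higher in SEZ_GFPprom than in DIEC_GFP. Over all genes 7.02% were lower and 9.03% higher, so that a count of 1 higher among 17 is near the background. Ank2, an ankyrin that links L1 family proteins to the cytoskeleton, read 69, 152, 65 and 75 units in SEZ_GFPprom and 492, 735, 402 and 305 in DIEC_GFP. The groups did not overlap, and the level was 5.43-fold lower (adjusted p = 0.000636) in SEZ_GFPprom. It was also 6.29-fold lower there than in SEZ_Prom (adjusted p = 0.00261), where both arrays read 532. Cntnap2, the partner of contactin 2 at axons, went the other way from Cntn2 and was 6.66-fold higher in SEZ_GFPprom than in DIEC_GFP (adjusted p = 0.00165). Tnr, the matrix protein tenascin-R and a contactin 1 ligand, was 10.4-fold lower in SEZ_CD24 than in DIEC_GFP (adjusted p = 0.000492), or 8.29-fold with values under 10 set to 10. Nfasc (neurofascin, an L1 relative) and Ptprz1 (a phosphatase receptor that binds contactin 1) were 5.22-fold and 2.65-fold lower in that comparison (adjusted p = 0.00323 and 0.00239).

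Among 18 neurexin partners, 3 were lower and 0 higher in SEZ_CD24 than in DIEC_GFP, with 6 at an unadjusted p under 0.05 by limma. Over all genes 9.13% were lower and 6.31% higher, so that a count of 0 higher among 18 is near the background. They were Dag1 (dystroglycan, a neurexin ligand), 3.07-fold lower (adjusted p = 0.0112), Nlgn1 (neuroligin 1), 2.38-fold lower (adjusted p = 0.028), and Nxph1 (neurexophilin 1), 2.77-fold lower (adjusted p = 0.0497). Nrxn3 was higher in the same comparison. Without SEZ_CD24 replicate 1 Dag1 and Nxph1 gave adjusted p = 0.0951 and 0.378, and without replicate 2 Nlgn1 gave 0.281.

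Of 18 other immunoglobulin adhesion molecules, 4 were higher and 5 lower in SEZ_CD24 than in DIEC_GFP, against 6.31% and 9.13% of all genes. Alcam, a homophilic receptor of axons and immune cells, read 34 and 40 units in SEZ_CD24 and 276 to 717 on the other 12 arrays. It was 18.3-fold lower than in DIEC_GFP (adjusted p = 1.95e-05) and lower than in SEZ_GFPprom (log2 difference 3.59, SEZ_GFPprom minus SEZ_CD24, adjusted p = 3.93e-05), and both calls were kept under every alternative tried. Sdk2 (sidekick 2, which matches synaptic partners) was 4.71-fold higher (adjusted p = 0.000481) and Dscaml1 (a self-avoidance receptor) 4.8-fold higher (adjusted p = 0.00375) in SEZ_CD24 than in DIEC_GFP. In SEZ_GFPprom, Icam5 (telencephalin, of forebrain neurons) was 7.4-fold higher (adjusted p = 0.00115), and Kirrel3 and Nptn (a neuroplastin) were 10.8-fold and 4.67-fold lower (adjusted p = 0.00333 and 0.00513) than in DIEC_GFP. With the 3' to 5' ratio as a covariate, Nptn no longer passed (adjusted p = 0.0929).

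The genes most like each member over the 14 arrays were ranked among 9151 genes by Pearson r of log2 intensity, as a description of arrays that share the group differences. Cntn2 ran with Pllp (plasmolipin, a myelin protein, r = 0.974), Hapln2 (a link protein of nodes, r = 0.969) and Unc5b (a netrin receptor, r = 0.965). Nrxn3 ran with Nfib (a transcription factor, r = 0.957), Lrp8 (a reelin receptor, r = 0.946) and Mex3a (an RNA-binding protein, r = 0.940). Cntn1 ran with Scd1 (a fatty acid desaturase, r = 0.956), Selenop (a selenium carrier, r = 0.950) and Fez2 (r = 0.942). For Nrcam these were Atp13a4 (0.948), Mfsd2a (0.933) and Grin3a (0.921), and for Chl1 Hrh1 (0.941), Lhfpl3 (0.937) and Phka1 (0.930). L1cam had Samd14 (0.903), Golm1 (0.900) and Nav3 (0.898), and Ncam2 had Acss2 (0.916), Dipk1a (0.914) and Creb3l2 (0.912). Ncam1, by its brightest probe set, had Ddx5 (0.924), Fam76b (0.924) and Zfp41 (0.916). Nrxn2 reached 0.841 with Mark2, 0.793 with Stxbp5l and 0.756 with Spryd3, the lowest values of the 9 genes.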

How the data were processed

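RNA of sorted cells from 14 samples was amplified in a pair of rounds and hybridised to 1 array each, per the labels' protocols. The authors deposited intensity values made by RMA, per the submitters' processing notes, with no version given. They are linear whole numbers from 3 to 18925, and 25.4% to 25.7% of each array's values were at 10 or less, so differences between dim values are coarse. Depth does not apply to arrays, and the number of arrays limits precision. No column outside the 14 samples was present.

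Log2 was taken with no pseudocount. Of 45101 probe sets, 64 controls, 932 with several symbols and 9160 with none were left out. The other 34945 were fitted with limma 3.58.1 (R 4.3.3; lmFit, contrasts.fit, eBayes) in 1 fit of 14 arrays with a mean per group (9 residual and 2.469 prior degrees of freedom). Tests were two-sided, with Benjamini-Hochberg adjustment over all probe sets within each of 10 comparisons and a threshold of 0.05. Other genes were read by their probe set with the highest mean. Genes named from other lists were those of up to 3 smallest adjusted p per list and comparison described, and likeness used genes with a group mean of 100 units or more. Cell type marker lists were astrocyte, neuroblast, mature neuron, ependymal, oligodendrocyte, oligodendrocyte progenitor, microglia, endothelial and choroid plexus. The fit was tested on simulated data with 200 of 34945 probe sets changed, by 1, 2 or 3 log2 units. For SEZ_GFPprom minus DIEC_GFP it recovered 41.8%, 77.6% and 98.5% of these sizes. For SEZ_Prom minus DIEC_GFP it recovered 37.3%, 58.2% and 89.4%. False calls were 8.81% and 6.82% of the calls, above the threshold of 0.05. The members and lists were chosen with earlier results of these data known. Alternatives were other normalisation, filters, a floor, the samples fitted, a replicate block, the 3' to 5' ratio and each array left out. Promoters came from RefSeq (GRCm38.p6), which held 7 of the 9 genes.

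Titles number the replicates, but the numbers did not pair samples: deviations from group means correlated by -0.19 to 0.13 between groups for equal numbers (22 pairs) and by -0.19 to 0.19 for unequal ones (54 pairs).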

Additional observations from a re-analysis of the deposited data

Results flagged for a closer look

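In the groups of 4 arrays, the array farthest from the others was compared with the group's range (Dixon's ratio at its 95% critical value) for 68 sets of 4 values, and 8 stood apart. Chance gives about 1 in 20. In SEZ_GFPprom the lowest were replicate 4 for Ncam1 1426865_a_at (7.27 log2 units, the others from 7.95 to 8.02), replicate 3 for Cntn2 1435165_at (5.21, the others from 6.48 to 6.61), replicate 2 for Nrxn2 1435907_at (6.29, the others from 7.09 to 7.24) and replicate 3 for Nrxn3 1432931_at (2.81, the others from 3.46 to 3.58). In DIEC_GFP replicate 4 was the lowest for Nrxn3 1438193_at (3.91, the others from 5.04 to 5.21) and for Nrxn3 1432931_at (2.81). There, replicate 2 was the highest for Chl1 1443713_at (2.58) and the lowest for L1cam 1421958_at (2.32). The last 3 are steps of 1 intensity unit between DIEC_GFP values below 10 units. Without SEZ_GFPprom replicate 3, the Cntn2 difference from DIEC_GFP kept its call.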

How the results depend on the processing

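No result changed direction under any alternative. Of 82 passing results of the member probe sets, 26 passed under every alternative run and 56 were lost under 1 or more. The cause of each loss was not tested. With only the groups compared in the fit, which leaves fewer arrays, 2 probe sets passed between SEZ_GFPprom and SEZ_Prom, 3 between SEZ_GFPprom and SEZ_CD24, 0 between SEZ_GFP and SEZ_Prom, 7 between SEZ_GFP and DIEC_GFP, 0 between SEZ_Prom and SEZ_CD24 and 3 between SEZ_Prom and DIEC_GFP. In the 3 comparisons of 2 arrays with 2, that fit passed 0 of all 34945 probe sets. With the 3' to 5' ratio as a covariate the counts were 2 for SEZ_GFPprom against SEZ_GFP, 2 for SEZ_GFPprom against SEZ_Prom, 8 for SEZ_GFP against DIEC_GFP, 1 for SEZ_Prom against SEZ_CD24 and 1 for SEZ_Prom against DIEC_GFP. That ratio was highest in DIEC_GFP. With values under 10 set to 10, 2 passed between SEZ_GFPprom and SEZ_Prom and 3 between SEZ_GFP and SEZ_Prom, and of the other adhesion genes 0 passed between SEZ_GFPprom and SEZ_GFP and 2 between SEZ_GFPprom and SEZ_Prom. With the replicate block, 0 passed between SEZ_GFPprom and SEZ_GFP and 1 between SEZ_Prom and DIEC_GFP, and the other counts of member probe sets stayed within 1.5 times. For SEZ_GFPprom against SEZ_GFP, 2 passed with 1 probe set per gene, and 2 without both SEZ_CD24 arrays, an alternative chosen after seeing the data.

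Leaving out 1 array at a time, the count of member probe sets ran from 0 to 2 for SEZ_GFPprom against SEZ_GFP, 0 to 7 for SEZ_GFPprom against SEZ_Prom, 1 to 6 for SEZ_GFPprom against SEZ_CD24, 13 to 16 for SEZ_GFPprom against DIEC_GFP, 0 to 8 for SEZ_GFP against SEZ_Prom, 3 to 17 for SEZ_GFP against DIEC_GFP, 1 to 10 for SEZ_Prom against SEZ_CD24, 1 to 5 for SEZ_Prom against DIEC_GFP and 11 to 21 for SEZ_CD24 against DIEC_GFP, and stayed at 0 for SEZ_GFP against SEZ_CD24. The lowest of these that fell below the main count came without SEZ_GFP replicate 2, SEZ_CD24 replicate 2, SEZ_Prom replicate 1 or 2, or DIEC_GFP replicate 2. In every comparison the lowest count over all probe sets was also below its main count, so such falls were not particular to the member probe sets. Leaving out an array from a group of 2 leaves 1 array in it. Of the other adhesion genes, in the same order of comparisons, the ranges were 0 to 2, 2 to 7, 4 to 12, 11 to 22, 0 to 11, 4 to 15, 1 to 10, 1 to 7 and 10 to 20, and 1 to 3 for SEZ_GFP against SEZ_CD24. Calls of dim probe sets are limited by intensities rounded to whole units.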

Other observations

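Over the 14 arrays the highest r between brightest probe sets of different members were 0.86 for Nrxn3 with L1cam, 0.84 for Chl1 with Nrcam and 0.82 for Ncam2 with Cntn2, and the lowest was -0.80 for Nrxn3 with Ncam2. These are descriptions over arrays that share the group differences. In DIEC_GFP replicate 4, Cntn1 1449563_at read 587 units, against 1742 to 3380 on the other arrays of that group, while Cntn2 1435165_at read 944 units, against 203 to 418.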
